A study of Mus musculus with 24 samples.

Results

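Messenger RNA of 40 genes that hold reactive oxygen species in check was followed in 24 hearts, each homogenised whole, from adult mice of the C57BL/6J strain. The set holds the transcription factor NRF2 (gene Nfe2l2) and its inhibitor Keap1, enzymes that NRF2 is known to induce, the enzymes that make, recycle and use glutathione, the thioredoxin system, the peroxiredoxins, the superoxide dismutases, catalase and both main metallothioneins. Members were found by exact gene symbol. Each of the 40 had 1 row of its own among the 19664 rows of the expression table, none stood in a row that joins several symbols, and all 40 were tested. Wild-type hearts (WT) were compared with hearts that carry a transgene for O-GlcNAcase (OGA_TG), for O-GlcNAc transferase (OGT_TG) or for both enzymes (DTG). Each genotype had 6 hearts, 3 from males and 3 from females, and no mouse was treated. OGT adds the sugar O-GlcNAc to serines and threonines of nuclear, cytosolic and mitochondrial proteins, and OGA removes it. The labels call the transgenes cardiac specific; the promoter that drives them is not given in the sources used here.

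NRF2 is made all the time and is normally marked for destruction by KEAP1, which carries reactive cysteines. When oxidants or electrophiles modify those cysteines, NRF2 escapes, enters the nucleus, pairs with a small MAF protein and binds antioxidant response elements (AREs) of its target genes. Its targets supply glutathione, thioredoxin and the NADPH that both systems spend to reduce peroxides, a task that is heavy in heart muscle with its many mitochondria. Metallothioneins bind zinc and copper, and their genes answer to metals through the factor MTF1 as well as to glucocorticoids and inflammation.

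Promoter letters show which members carry an ARE core near a start given by RefSeq. Windows of 300 bases, 250 before the start and 50 after it, came from RefSeq on the mouse build GRCm38.p6 and held 34 of the 40 members in 41 windows. Hmox1, Gclc, Gsr, Gsta4, Prdx6 and Sod3 had no window. The core searched was TGACNNNGC on both strands, where N is any base. It stood in 11 of 41 member windows (26.8%) and in 12.4% of all 32851 windows. The matches are printed below with 10 bases on each side, 5′ to 3′ on the gene's strand, and capitals mark the 9 matched bases, which read TGACNNNGC or its reverse complement. The 6 genes that come first were higher in OGT_TG than in WT hearts, and the 5 others did not pass that test. Of all tested rows 25.2% were higher, and the share of all 40 members is given below. Whether the core and the rise are linked was not tested.
Gclm (chr3:122245413-122245441, plus strand): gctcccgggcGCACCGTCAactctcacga
Srxn1 (chr2:152105542-152105570, plus strand): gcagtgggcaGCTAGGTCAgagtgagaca
Txnrd1 (chr10:82859104-82859132, plus strand): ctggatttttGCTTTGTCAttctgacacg
G6pdx (chrX:74428919-74428947, minus strand): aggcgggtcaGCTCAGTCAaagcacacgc
Gsta3 (chr1:21240454-21240482, plus strand): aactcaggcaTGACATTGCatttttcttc
Mt2 (chr8:94172529-94172557, plus strand): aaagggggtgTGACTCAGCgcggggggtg
Nfe2l2 (chr2:75704885-75704913, minus strand): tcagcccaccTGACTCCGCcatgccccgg
Me1 (chr9:86695902-86695930, minus strand): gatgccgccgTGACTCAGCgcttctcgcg
Prdx1 (chr4:116685456-116685484, plus strand): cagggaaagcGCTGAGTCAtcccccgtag
Sod1 (chr16:90220696-90220724, plus strand): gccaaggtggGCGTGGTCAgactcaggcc
Gstm5 (chr3:107895802-107895830, plus strand): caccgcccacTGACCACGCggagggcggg
A match is a string of letters and not a measured binding site, and many functional AREs lie outside such windows. The Txnrd1, G6pdx and Me1 matches lie near RefSeq starts inside the annotated genes. Read along the gene's strand, these genes begin at chr10:82833951, chrX:74429194 and chr9:86695953. The Srxn1 match begins at base 29 after the start.

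Levels were FPKM, fragment counts corrected for transcript length and for the size of the library, so they compare genes per length. Differences are on the log2(FPKM + 1) scale, which understates the change of low genes. They were tested with limma over all 12020 rows that reached 1 FPKM in at least 6 hearts, and an adjusted p (Benjamini-Hochberg) below 0.05 made a call. Gene positions are on mm10. Each p-value measures the spread between hearts of different mice. All 40 members reached 1 FPKM in all 24 hearts. The most abundant in WT were Gpx4 with a mean of 423 ± 31 FPKM and Sod1 with 406 ± 25, and the least abundant were Hmox1 with 4.28 ± 0.52 and G6pdx with 4.46 ± 0.52 (SD, n = 6). Txnip, a stress and glucose responsive inhibitor of thioredoxin, was the most variable, with 115 to 505 FPKM in WT and a coefficient of variation of 61.6%.

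Several facts about the libraries touch the results. The table summed to 463500 to 513602 FPKM per heart, and the number of reads behind a library is not given by FPKM. The row named OGT had a median of 1859 FPKM in OGT_TG and 4716 in DTG against 1.16 in WT, and the row named OGA had 4187 in OGA_TG and 3432 in DTG against 0 in WT; these rows were taken as the transgenes from their names and values. OGT_TG replicates 3 and 6 stood apart from the other 4 OGT_TG hearts. Both lay above the other 4 for 12 members and below them for 12, beside 27.6% and 22.8% of all tested rows, and they had the lowest OGT rows of the 6. Values without both hearts are given where they matter. WT replicate 1 was set apart from the other WT hearts more often than they were (2.25% of all tested rows against 0.358% to 0.932%).

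Cell type markers also moved with genotype. Summed cardiomyocyte markers, of which 7 of 9 had a row, ran from 53073 to 58966 FPKM in WT, from 37991 to 50136 in OGT_TG and from 44161 to 48978 in DTG. Summed fibroblast markers (10 of 10 with a row) ran from 1091 to 1302 in WT, from 1796 to 2950 in OGT_TG and from 1216 to 1627 in DTG. Summed macrophage markers (9 of 10 with a row) ran from 183 to 226 in WT, from 239 to 561 in OGT_TG and from 196 to 286 in DTG. In OGT_TG against WT, 6 of 7 cardiomyocyte markers were lower, and 10 of 10 fibroblast and 6 of 9 macrophage markers were higher. Without OGT_TG replicates 3 and 6 these were 4 lower, 8 higher and 2 higher. Over all tested rows 25.2% rose and 12.2% fell, or 17.4% and 7.78% without those hearts. For endothelial, smooth muscle and pericyte, erythroid and adipocyte markers, the sums of WT and OGT_TG hearts overlapped. In these lists 0 markers were higher without those hearts, and 1 smooth muscle and pericyte marker was lower. No marker of these lists was at 0 in all hearts of a genotype. In whole hearts, fewer cells of a type and less RNA per cell cannot be told apart, and the part of cell makeup in the results that follow was not tested.

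**Figure D1:**
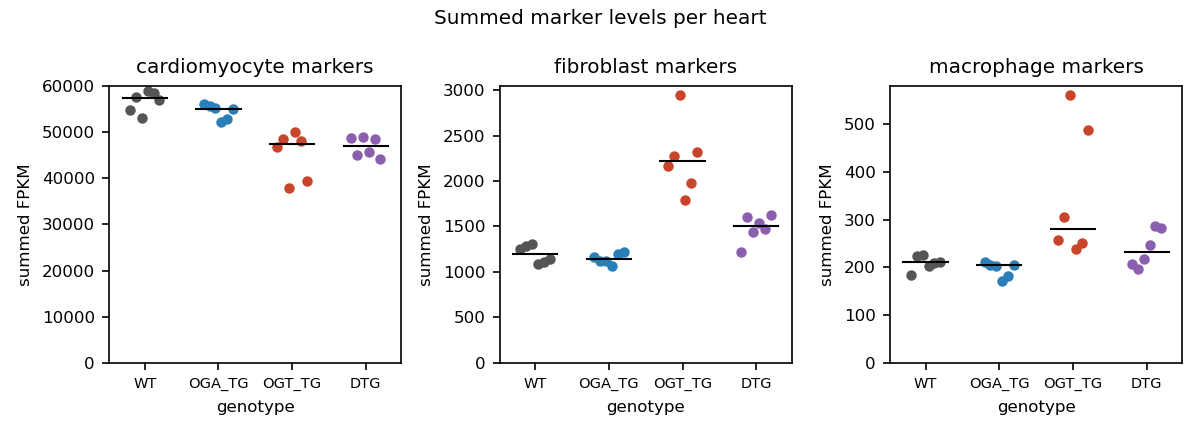
Summed FPKM of cardiomyocyte, fibroblast and macrophage markers, each point 1 heart and each bar the median of 6 hearts per genotype. Fibroblast and macrophage sums of all 6 OGT_TG hearts lie above those of all 6 WT hearts, and cardiomyocyte sums below.

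OGT_TG hearts had higher messenger RNA than WT for both subunits of glutamate-cysteine ligase (Gclc and Gclm), glutathione reductase (Gsr), cytosolic thioredoxin reductase (Txnrd1), sulfiredoxin (Srxn1) and extracellular superoxide dismutase (Sod3). All 5 glutathione peroxidases were called higher as well, 3 of them also without OGT_TG replicates 3 and 6. Of the 40 members, 18 rose and 5 fell in OGT_TG against WT. That is 45.0% and 12.5% of the members, beside 25.2% and 12.2% of all tested rows (37.4% in either direction). The median difference was 0.19 log2 over the members and 0.06 over all rows. In 10 members all 6 OGT_TG hearts lay above all 6 WT hearts (10.6% of all rows did so), and in 2 members they lay below (4.47%). Under median-of-ratios scaling, 15 members rose and 8 fell, and over all rows 2042 rose and 2278 fell in place of 3029 and 1470. Without OGT_TG replicates 3 and 6, 17 members rose and 4 fell, beside 17.4% and 7.78% of all rows.

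**Figure D2:**
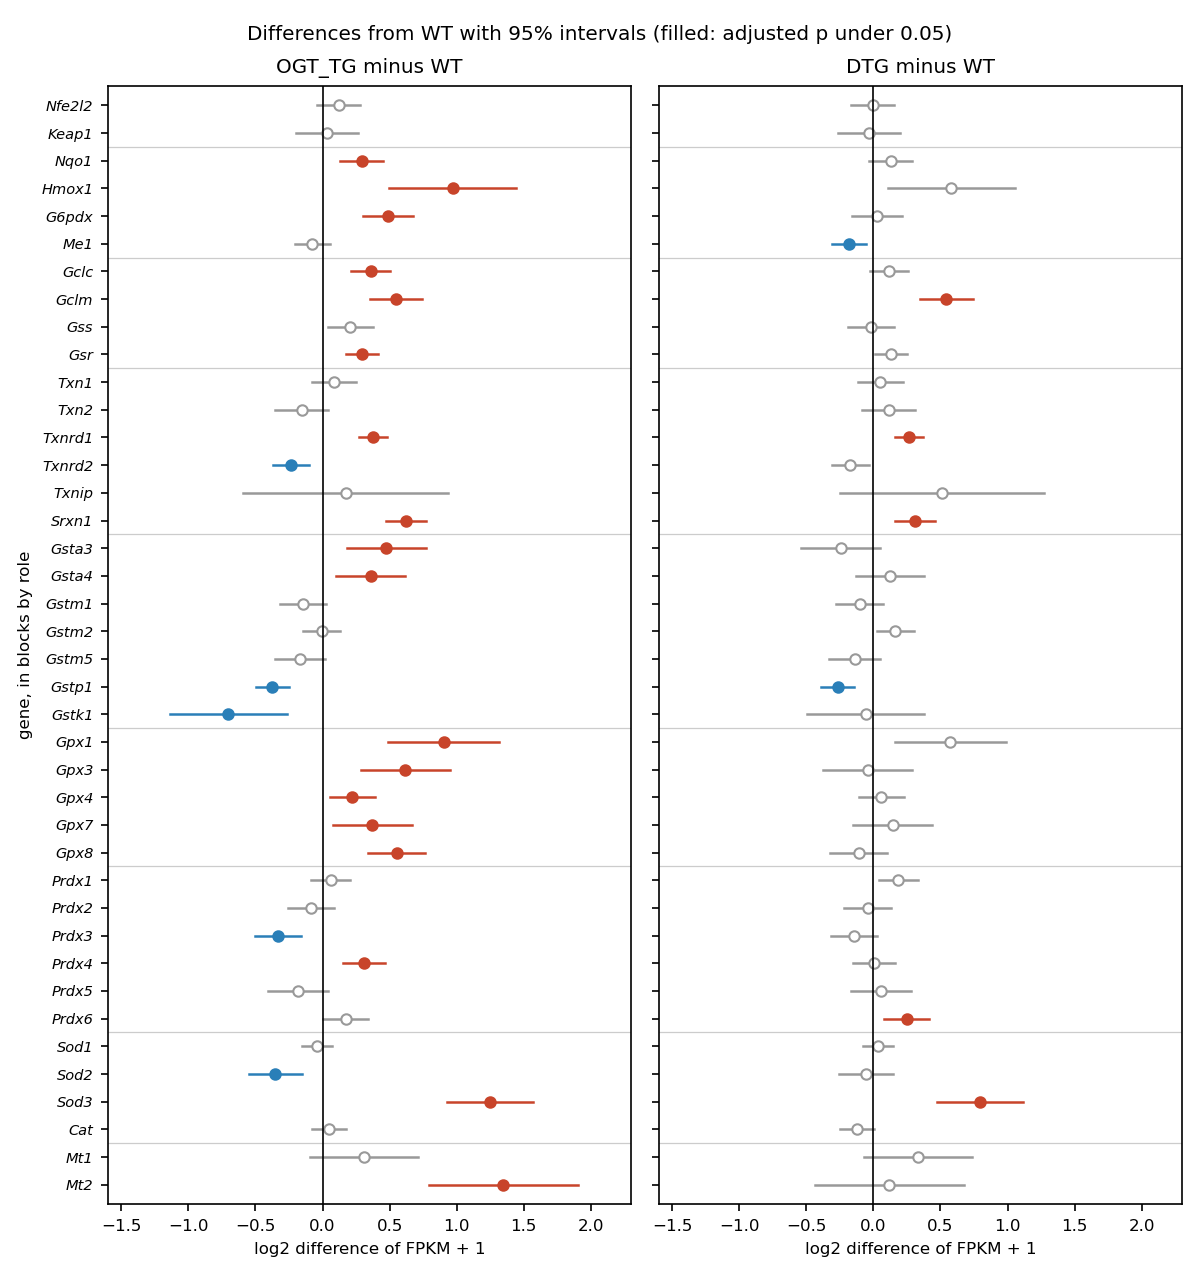
Log2 differences of FPKM + 1 from WT with 95% intervals for 40 genes in OGT_TG (left) and DTG (right), with 6 hearts per genotype; filled points passed an adjusted p of 0.05, red higher and blue lower. In OGT_TG 18 genes are filled red and 5 blue, and in DTG 5 are red and 2 blue.

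The regulators themselves did not pass the test. Nfe2l2 ran from 31.1 to 41.9 FPKM in WT (median 35.7) and from 34.3 to 46.4 in OGT_TG (median 39.1), a difference of 0.12 log2 with a 95% interval from -0.04 to 0.28. Keap1 differed by 0.03 log2 (interval -0.19 to 0.26), with medians of 15.0 FPKM in WT and 15.1 in OGT_TG. These are levels of messenger RNA, while NRF2 is controlled mainly through its protein.

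Enzymes that NRF2 induces rose in 3 of 4 cases, beside 25.2% of all tested rows. Hmox1, which breaks down haem (chr8:75093621-75100589), ran from 3.65 to 5.14 FPKM in WT with a median of 4.25. In OGT_TG it ran from 5.40 to 22.1 with a median of 7.43. All OGT_TG hearts lay above all WT hearts, with replicates 3 and 6 at 22.1 and 15.7 FPKM and the other 4 at no more than 8.52. The difference was 0.97 log2 (SE 0.23, adjusted p = 0.0020), and 0.50 (adjusted p = 0.0066) without both of those hearts. G6pdx, which feeds NADPH production through the pentose phosphate pathway, rose from 3.79 to 5.26 FPKM in WT (median 4.41) to between 5.82 and 9.05 in OGT_TG (median 6.22), again with no overlap. Its difference was 0.49 log2 (SE 0.09, adjusted p = 0.00022). Nqo1, a quinone reductase often used as a readout of NRF2, rose less, by 0.29 log2 (SE 0.08, adjusted p = 0.0046), with medians of 46.0 and 54.6 FPKM and ranges that overlapped slightly. Me1, the cytosolic malic enzyme that also yields NADPH, differed by -0.08 log2 (interval -0.20 to 0.05).

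Glutathione synthesis moved together with the enzyme that recycles glutathione. Gclm, the modifier subunit of glutamate-cysteine ligase, which sets the pace of glutathione synthesis, ran from 6.73 to 12.9 FPKM in WT (median 9.15). In OGT_TG it ran from 12.7 to 16.9 (median 13.9), a difference of 0.55 log2 (SE 0.09, adjusted p = 0.00011). The highest WT heart, at 12.9 FPKM, reached just into the OGT_TG range. Gclc, the catalytic subunit, rose by 0.36 log2 (SE 0.07, adjusted p = 0.00035) from a median of 5.80 FPKM in WT to 7.72, and its highest WT heart (7.26) lay under its lowest OGT_TG heart (7.41). Gsr, which returns oxidised glutathione to its reduced form, rose by 0.29 log2 (SE 0.06, adjusted p = 0.00039) from a median of 9.04 FPKM to 11.3, and its ranges did not overlap (7.73 to 9.97 and 10.0 to 12.5). Gss, the second enzyme of glutathione synthesis, differed by 0.21 log2 and just missed the threshold (adjusted p = 0.051). It passed without OGA_TG replicate 1, OGT_TG replicate 4 or 5, DTG replicate 4 or 5, or WT replicate 2, with differences between 0.21 and 0.26.

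In the thioredoxin system the cytosolic and mitochondrial reductases went opposite ways. Txnrd1, the cytosolic thioredoxin reductase (chr10:82833951-82897712), ran from 20.2 to 23.6 FPKM in WT (median 22.2) and from 27.0 to 30.5 in OGT_TG (median 29.2). Srxn1, sulfiredoxin, which rescues overoxidised peroxiredoxins (chr2:152105516-152111376), ran from 9.46 to 12.1 FPKM in WT (median 11.1) and from 16.2 to 18.5 in OGT_TG (median 17.3). Neither gene's ranges overlapped, and OGT_TG replicates 3 and 6 lay within the range of the other 4 OGT_TG hearts for both. Txnrd1 rose by 0.37 log2 (SE 0.05, adjusted p = 7.4e-06) and Srxn1 by 0.62 (SE 0.07, adjusted p = 1.3e-06). Without those hearts the differences were 0.35 and 0.62. Txnrd2, the mitochondrial reductase, fell by 0.24 log2 (SE 0.07, adjusted p = 0.0076) from a median of 19.3 FPKM to 15.6. Its call was lost without OGT_TG replicates 3 and 6 together (-0.15, adjusted p = 0.087), with only WT and OGT_TG in the model (adjusted p = 0.051), and with title number as a block, which WT and OGT_TG hearts share (adjusted p = 0.053). Cytosolic Txn1, mitochondrial Txn2 and Txnip did not pass, with differences of 0.09 (interval -0.08 to 0.25), -0.15 (-0.35 to 0.04) and 0.17 log2 (-0.59 to 0.93).

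All 5 members of the glutathione peroxidase family, which reduces peroxides, were higher in OGT_TG than in WT, beside 25.2% of all tested rows. Gpx8, a peroxidase of the endoplasmic reticulum, ran from 22.7 to 25.8 FPKM in WT (median 24.1) and from 26.3 to 44.4 in OGT_TG (median 37.5). Gpx3, the secreted form, ran from 259 to 316 FPKM in WT (median 266) and from 319 to 722 in OGT_TG (median 342). Ranges did not overlap for these 2 genes, and replicates 3 and 6 stood at 642 and 722 FPKM for Gpx3, far above the 319 to 345 of the other OGT_TG hearts. Gpx8 rose by 0.55 log2 (SE 0.10, adjusted p = 0.00023) and Gpx3 by 0.62 (SE 0.16, adjusted p = 0.0045); without both hearts the values were 0.44 and 0.28, both still called. Gpx1, the cytosolic and mitochondrial form, rose by 0.90 log2 (SE 0.20, adjusted p = 0.0013), from 25.0 to 45.0 FPKM in WT (median 34.8) to 42.1 to 109 in OGT_TG (median 58.6). Its difference was 0.57 without both hearts.

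The 2 other peroxidase calls were lost when single hearts were left out. Gpx4, which protects membrane lipids and is the barrier against ferroptosis, rose by 0.22 log2 (SE 0.08, adjusted p = 0.036). It missed the threshold without OGT_TG replicate 2, 3 or 6 or WT replicate 1, 4, 5 or 6 (0.18 to 0.22), and without both OGT_TG replicates 3 and 6 (0.16, adjusted p = 0.19). Gpx7, another peroxidase of the endoplasmic reticulum, rose by 0.37 log2 (SE 0.14, adjusted p = 0.045). Gpx7 missed the threshold without any of 12 hearts, which were WT replicates 2 to 6, OGT_TG replicates 2, 3 and 6, OGA_TG replicate 2 and DTG replicates 1, 2 and 4, with differences between 0.25 and 0.37. It was 0.13 (adjusted p = 0.45) without OGT_TG replicates 3 and 6, and its adjusted p was 0.12 with the title number as a block. Without those hearts 3 of 5 glutathione peroxidases were called higher, beside 17.4% of all rows.

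Glutathione transferases, which join glutathione to electrophiles, split in direction. Gsta3 and Gsta4, of the alpha class, rose, Gstp1, of the pi class, and mitochondrial and peroxisomal Gstk1 fell, and Gstm1, Gstm2 and Gstm5, of the mu class, did not pass. Gstp1 ran from 82.8 to 95.6 FPKM in WT (median 87.2) and from 61.4 to 76.2 in OGT_TG (median 67.2), with no overlap. It fell by 0.38 log2 (SE 0.06, adjusted p = 4.7e-05). Gstk1 fell by 0.70 log2 (SE 0.21, adjusted p = 0.012), from 86.9 to 98.1 FPKM in WT (median 90.1) to 24.4 to 84.7 in OGT_TG (median 73.7). Replicates 3 and 6 held 32.4 and 24.4 FPKM and the other 4 OGT_TG hearts 71.4 to 84.7, so the difference was -0.22 (adjusted p = 0.0087) without both. With only WT and OGT_TG in the model the Gstk1 call was lost (adjusted p = 0.079).

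The alpha class also varied among OGT_TG hearts. Gsta3, at a median of 5.09 FPKM in WT and 7.89 in OGT_TG, rose by 0.47 log2 (SE 0.14, adjusted p = 0.011), and the call was lost under quantile normalization (adjusted p = 0.054). Gsta4, which clears lipid peroxidation aldehydes such as 4-hydroxynonenal, had a median of 77.9 FPKM in WT and 110 in OGT_TG and rose by 0.36 log2 (SE 0.12, adjusted p = 0.025). Its 4 other OGT_TG hearts held 107 to 123 FPKM, all above WT, while replicates 3 and 6 held 70.5 and 66.2, within the WT range of 62.8 to 84.3. Gsta4 missed the threshold without OGT_TG replicate 1, 2, 4 or 5 or WT replicate 3 (0.28 to 0.32), and reached 0.61 (adjusted p = 2.9e-06) without replicates 3 and 6. The mu class genes differed by -0.15 (Gstm1), -0.01 (Gstm2) and -0.17 log2 (Gstm5). Genes of the alpha, mu and pi classes have close copies, so reads may be shared between them.

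Of the 6 peroxiredoxins, which reduce peroxides through reactive cysteines, 1 rose and 1 fell, beside 25.2% and 12.2% of all tested rows. Prdx4, the form of the endoplasmic reticulum, rose by 0.31 log2 (SE 0.08, adjusted p = 0.0027) from a median of 20.3 FPKM to 25.3. Prdx3, the mitochondrial form, fell by 0.33 log2 (SE 0.08, adjusted p = 0.0034) from a median of 211 FPKM to 180. Prdx3 stood at 137 and 130 FPKM in OGT_TG replicates 3 and 6 and at 178 to 201 in the other 4, and the difference was -0.17 (adjusted p = 0.016) without both. Prdx6, which also repairs membrane lipids, differed by 0.17 log2 (adjusted p = 0.096), became a call without OGT_TG replicate 6 (0.25), and reached 0.32 (adjusted p = 0.00021) without replicates 3 and 6. Prdx1, Prdx2 and Prdx5 differed by 0.06, -0.09 and -0.19 log2 and did not pass.

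Superoxide dismutases divided by where the enzyme works. Sod3, the secreted form bound to the extracellular matrix (chr5:52363791-52371418), ran from 14.3 to 21.9 FPKM in WT (median 18.4) and from 32.7 to 72.7 in OGT_TG (median 38.9). All OGT_TG hearts lay above all WT hearts. Sod3 rose by 1.25 log2 (SE 0.15, adjusted p = 2.8e-06), and by 0.94 without replicates 3 and 6, which held 64.9 and 72.7 FPKM. Sod2, the mitochondrial form, ran from 139 to 166 FPKM in WT (median 161) and from 89.4 to 145 in OGT_TG (median 140). Replicates 3 and 6 were at 94.2 and 89.4 and the other 4 at 138 to 145. Sod2 fell by 0.35 log2 (SE 0.10, adjusted p = 0.0064) with all hearts and by 0.14 (adjusted p = 0.017) without both; with only WT and OGT_TG in the model it missed the threshold (adjusted p = 0.060). Cytosolic Sod1 (-0.04 log2, interval -0.15 to 0.07) and peroxisomal Cat, catalase (0.05, -0.08 to 0.18), did not pass.

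The metallothionein genes lie beside each other on chromosome 8, Mt2 at 94172664 to 94173568 and Mt1 at 94179082 to 94180327 on the same strand. Mt2 ran from 5.98 to 11.1 FPKM in WT (median 9.59) and from 15.9 to 57.8 in OGT_TG (median 21.4), with no overlap. It rose by 1.35 log2 (SE 0.27, adjusted p = 0.00047), the largest difference among the 40 members, and by 0.98 (adjusted p = 0.0052) without replicates 3 and 6. Mt1 ran from 53.6 to 87.6 FPKM in WT (median 73.4) and from 65.7 to 114 in OGT_TG (median 88.7), a difference of 0.31 log2 (interval -0.09 to 0.71, adjusted p = 0.22) that passed with the title number as a block (adjusted p = 0.038). The ranges of Mt1 overlapped widely. The difference between the responses of these genes was not tested.

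The 250 bases before the RefSeq start of each metallothionein gene are shown because Mt2 was called and its neighbour Mt1 was not. Capitals mark the ARE core and the metal response core, searched as TGCACNC and TGCGCNC on both strands. The Mt2 run holds 1 ARE core, whose first bases TGACTCA are also a match to the AP-1 motif TGANTCA, and 3 metal response cores. The Mt1 run holds 1 metal response core and no ARE core. Letters past the Mt1 window, which ends at chr8:94179138 inside the annotated gene, were not searched. An ARE core there would have been missed, so these runs do not show that Mt1 lacks one. Past the start, the windows hold further metal response cores at bases 3 and 21 for Mt1 and at base 5 for Mt2. Whether these letters bear on the calls was not tested. Over all windows of 300 bases, 12.6% hold TGCACNC, 15.4% TGCGCNC and 7.81% TGANTCA, and among the member windows the shares were 12.2%, 26.8% and 14.6%.
Mt2 (chr8:94172368-94172617, plus strand): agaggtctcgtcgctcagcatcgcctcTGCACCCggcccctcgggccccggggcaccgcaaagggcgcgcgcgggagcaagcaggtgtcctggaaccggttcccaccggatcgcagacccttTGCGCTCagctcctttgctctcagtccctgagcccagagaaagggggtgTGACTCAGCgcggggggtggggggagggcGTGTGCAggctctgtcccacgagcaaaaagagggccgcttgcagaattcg
Mt1 (chr8:94178839-94179088, plus strand): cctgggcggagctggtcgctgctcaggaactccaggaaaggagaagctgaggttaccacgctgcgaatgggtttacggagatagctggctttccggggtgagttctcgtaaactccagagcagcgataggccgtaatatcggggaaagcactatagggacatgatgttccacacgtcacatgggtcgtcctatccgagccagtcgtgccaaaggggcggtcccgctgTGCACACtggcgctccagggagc
No match says only that these letters are not in the window.

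Some members are counted here by where their proteins work, for OGT_TG against WT. The grouping was made after the values were seen, so the counts describe it and do not test it. Of 5 mitochondrial members (Txn2, Txnrd2, Prdx3, Sod2 and Gstk1), 4 fell and none rose, with a median of -0.33 log2, beside 12.2% of all rows that fell. With OGT_TG replicates 3 and 6 left out, 3 fell and the median was -0.15. Gpx1, whose enzyme is both cytosolic and mitochondrial, is not in this grouping and rose by 0.90. Gpx4, which was called higher, and Prdx5, which did not pass, are not in it either. Gstk1, which is also peroxisomal, was kept in it. Of 5 members that are secreted or sit in the endoplasmic reticulum (Sod3, Gpx3, Gpx7, Gpx8 and Prdx4), 5 rose, with a median of 0.55 log2, beside 25.2% of all rows that rose. Without those hearts 4 rose and the median was 0.28. In DTG against WT, none of the mitochondrial members was called and 1 of the secreted or endoplasmic reticulum members, Sod3, rose. The fibroblast and cardiomyocyte marker sums given above moved in the same hearts, and their part in this division was not tested.

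**Figure D3:**
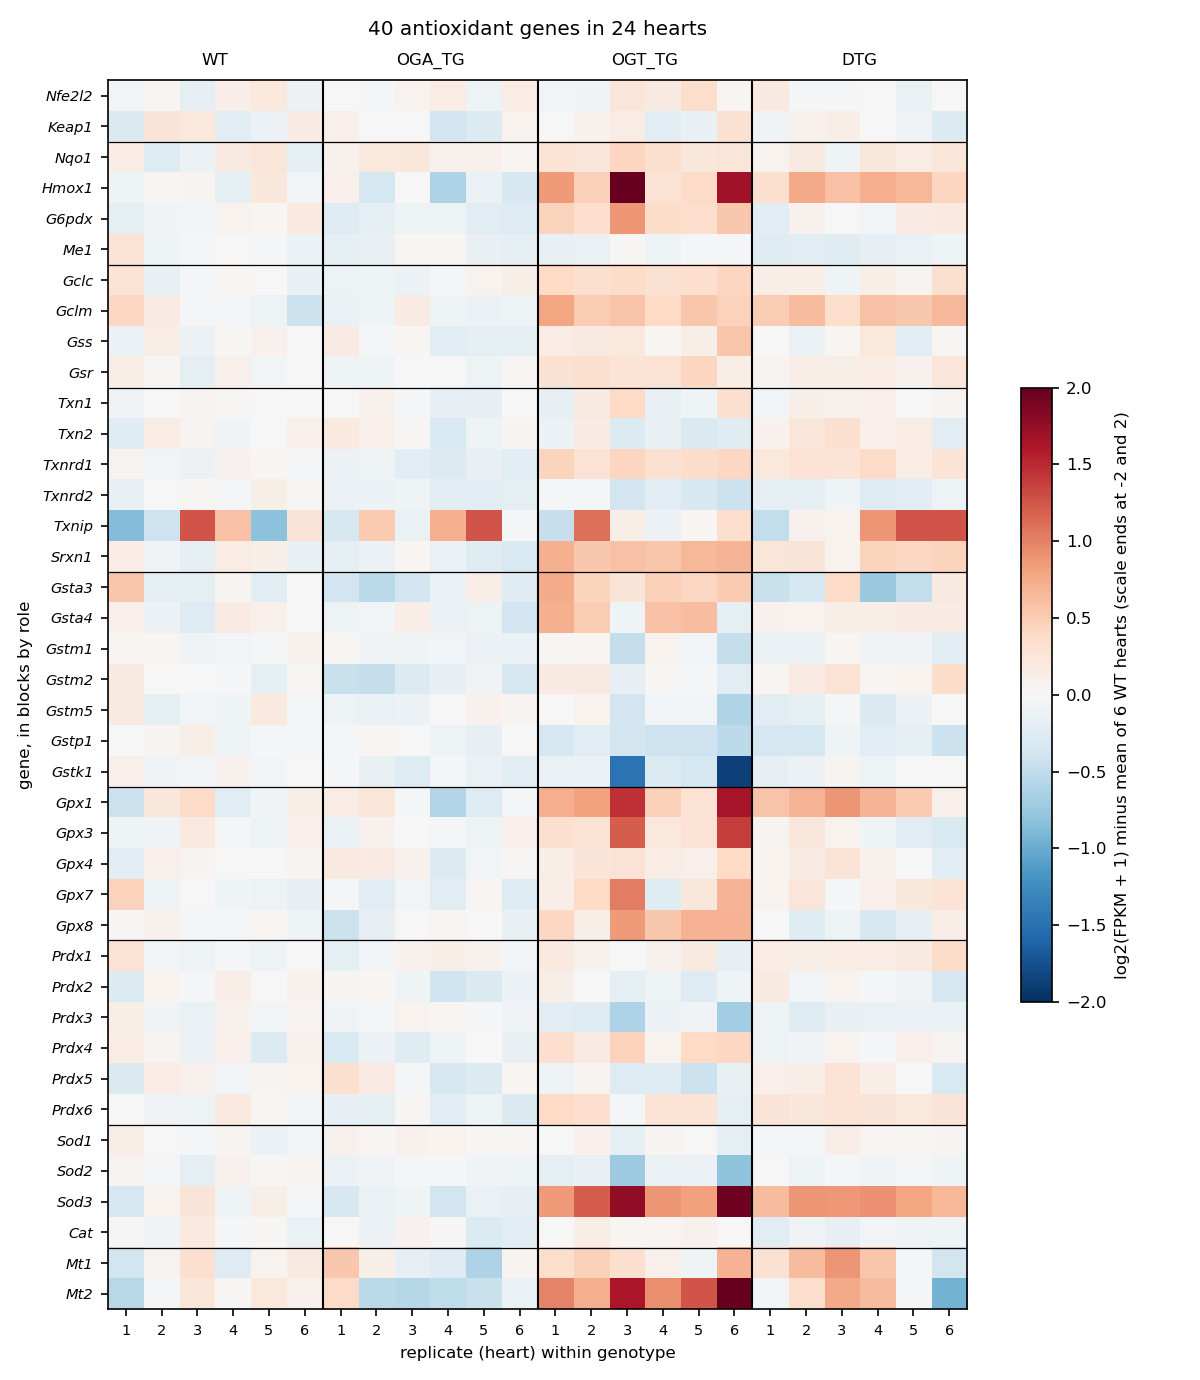
Log2(FPKM + 1) of 40 genes in 24 hearts, each less the mean of the 6 WT hearts, with genes in blocks by role and the colour scale ending at -2 and 2. OGT_TG replicates 3 and 6 carry the strongest colours for Hmox1, Gstk1, Gpx1, Gpx3, Sod3 and Mt2, while Gclm, Txnrd1 and Srxn1 are similar over the 6 OGT_TG hearts.

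With both transgenes, fewer members stood apart from WT. In DTG, 5 members rose (12.5%, beside 4.21% of all rows) and 2 fell (5.00%, beside 11.4%), and the median difference was 0.05 log2 against -0.04 over all rows. The comparison uses the same WT hearts as that of OGT_TG. The 5 that rose were Gclm, Txnrd1, Srxn1, Prdx6 and Sod3. In 4 members all DTG hearts lay above all WT hearts (2.79% of all rows), and these were Hmox1, Txnrd1, Prdx6 and Sod3. In none did they lie below (6.57% of all rows, and 9.36% in either direction). Rescaled by median-of-ratios, 8 members rose and 1 fell, beside 6.26% and 7.63% of all rows. Rescaled to an equal sum of FPKM, 8 rose and 1 fell, beside 6.28% and 6.08% of all rows.

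Gclm ran from 12.2 to 15.2 FPKM in DTG (median 14.3) and rose by 0.54 log2 over WT (SE 0.09, adjusted p = 0.00037). Txnrd1 ran from 24.6 to 29.2 (median 27.0) and rose by 0.27 (SE 0.05, adjusted p = 0.00080). Sod3 ran from 28.7 to 35.3 (median 33.1) and rose by 0.79 (SE 0.15, adjusted p = 0.0011). Txnrd1 and Sod3 were above all WT hearts in all 6 DTG hearts, while the lowest DTG heart for Gclm, at 12.2 FPKM, lay inside the WT range. The spread of these 3 genes in DTG was small. Srxn1 ran from 11.5 to 15.2 FPKM in DTG (median 14.03), above WT by 0.31 log2 (SE 0.07, adjusted p = 0.0044), with its lowest DTG heart inside the WT range. Hmox1 ran from 5.58 to 7.90 FPKM (median 7.12); its difference of 0.58 log2 missed the threshold (adjusted p = 0.088), and passed without OGT_TG replicate 3 (adjusted p = 0.021) or with only WT and DTG in the model (adjusted p = 0.00068). Gpx1 differed by 0.57 log2 (adjusted p = 0.055) and passed without OGA_TG replicate 4, OGT_TG replicate 3, 4, 5 or 6, DTG replicate 6 or WT replicate 3, with differences between 0.57 and 0.67.

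Prdx6 had 138 to 144 FPKM in all 6 DTG hearts (median 143) against 111 to 136 in WT (median 116), a difference of 0.25 log2 (SE 0.08, adjusted p = 0.038). The Prdx6 call was lost without DTG replicate 1, 2, 3, 4 or 6 or WT replicate 1, 2, 3, 5 or 6, though the difference stayed between 0.23 and 0.26. Gstp1 fell by 0.27 log2 (SE 0.06, adjusted p = 0.0038) to a median of 72.6 FPKM from 87.2 in WT. Me1 fell by 0.18 log2 (SE 0.06, adjusted p = 0.048) to a median of 55.7 FPKM from 62.4. That call was lost without any of 16 hearts, among them WT replicate 1 (-0.13, adjusted p = 0.13), which had the highest Me1 level of all hearts at 76.9 FPKM. The others were WT replicates 3, 4 and 5, DTG replicates 1 to 5, OGT_TG replicates 1, 2, 4 and 5 and OGA_TG replicates 2, 5 and 6 (-0.19 to -0.17). Prdx1 (0.19 log2, adjusted p = 0.080) passed without WT replicate 1 (0.24, adjusted p = 0.021). Mt2, with a median of 10.5 FPKM in DTG and 9.59 in WT, differed by 0.12 log2 (interval -0.44 to 0.67), and Gpx3 and Gpx8 by -0.04 and -0.11.

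Set directly against OGT_TG, DTG hearts had lower messenger RNA for 12 members and higher for 3. That is 30.0% and 7.50%, beside 27.2% and 5.02% of all rows (32.3% in either direction), so the share of members was near that of all rows. The median difference over all rows was -0.11 log2 as deposited and 0.01 under median-of-ratios scaling or quantile normalization, and that of the members was -0.11, 0.04 and -0.00. With that shift taken out, 5 members were lower and 10 higher by median-of-ratios; quantile normalization gave 7 lower and 6 higher. Over all rows the split was 3274 lower and 604 higher as deposited, and 1368 and 1477 under median-of-ratios scaling. Under quantile normalization 1364 rows were lower and 1273 higher. All 6 DTG hearts lay below all 6 OGT_TG hearts for G6pdx, Srxn1 and Cat, which is 3 members beside 8.77% of rows, and above for Sod2, 1 member beside 1.12% (9.89% of rows in either direction).

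The largest falls were in Mt2, Gsta3, Gpx8 and Gpx3. Mt2 fell by 1.23 log2 (SE 0.27, adjusted p = 0.0017) and held 4.27 to 16.2 FPKM in DTG against 15.9 to 57.8 in OGT_TG. Gsta3 fell by 0.72 (SE 0.14, adjusted p = 0.00075), with medians of 3.90 and 7.89 FPKM. Gpx8 fell by 0.66 (SE 0.10, adjusted p = 7.5e-05) and Gpx3 by 0.66 (SE 0.16, adjusted p = 0.0037), to medians of 21.99 and 274 FPKM in DTG. In WT the medians were 9.59 FPKM for Mt2, 5.09 for Gsta3, 24.1 for Gpx8 and 266 for Gpx3. G6pdx fell by 0.46 log2 (SE 0.09, adjusted p = 0.00070) to a median of 4.60 FPKM. Without OGT_TG replicates 3 and 6 these falls were 0.86 (Mt2), 0.76 (Gsta3), 0.55 (Gpx8), 0.32 (Gpx3) and 0.34 log2 (G6pdx), and all were still called.

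Srxn1 (-0.31), Prdx4 (-0.31), Gclc (-0.24), Gss (-0.22), Cat (-0.17) and Gsr (-0.16) fell as well, and so did Sod3 (-0.45). Under median-of-ratios scaling Srxn1 (adjusted p = 0.062), Prdx4 (0.088), Gclc (0.20), Gss (0.43), Cat (0.78), Gsr (0.71) and Sod3 (0.14) were no longer called. Gss, Gsr, Cat and Sod3 also depended on single hearts. Sod3 was lost without OGT_TG replicate 3 (-0.34) or 6 (-0.31) or DTG replicate 1 (-0.42), and was -0.15 without replicates 3 and 6. Gss was lost without OGT_TG replicate 1, 2, 3 or 6 or DTG replicate 1, 2 or 5 (-0.23 to -0.16). Gsr was lost without OGT_TG replicate 5 or DTG replicate 1, 2, 3 or 5 (-0.16 to -0.13), and Cat without OGT_TG replicate 2, 3 or 5 or DTG replicate 1 or 3 (-0.17 to -0.15). Gclm differed little between these genotypes (-0.00 log2, interval -0.20 to 0.19), and Txnrd1 differed by -0.10 (interval -0.21 to -0.00, adjusted p = 0.12).

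The 3 members that were higher in DTG than in OGT_TG were mitochondrial. Gstk1 rose by 0.64 log2 (SE 0.21, adjusted p = 0.023) to a range of 81.2 to 95.3 FPKM, Sod2 by 0.30 (SE 0.10, adjusted p = 0.022) to 146 to 158, and Txn2 by 0.27 (SE 0.10, adjusted p = 0.034) to 141 to 206. Without OGT_TG replicates 3 and 6 the differences were 0.16, 0.09 and 0.22 and none of the 3 was called. Leaving out replicate 3 or 6 alone also ended the calls of Gstk1 (0.47 and 0.41) and Sod2 (0.22 and 0.20). Txn2 was lost without OGT_TG replicate 3, 5 or 6 or DTG replicate 2, 3, 4 or 5 (0.22 to 0.28).

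With the OGA transgene alone, no member passed the test. In OGA_TG 0 members were called by limma, beside 0.358% of all rows (0.0582% higher and 0.300% lower). No member separated the 6 OGA_TG from the 6 WT hearts, which 1.69% of all rows did (0.250% higher and 1.44% lower). At an unadjusted p under 0.05, 5 members were lower and 0 higher, and these were Gstm2, Txnrd1, Txnrd2, Srxn1 and G6pdx; 9.48% of all rows passed that level. Over the members, 34 of 40 differences were negative, with a median of -0.08 log2 beside -0.05 over all rows. Gstm2 came closest, at 97.9 to 131 FPKM in OGA_TG (median 110) against 121 to 155 in WT (median 137), a difference of -0.30 log2 (SE 0.07, adjusted p = 0.052). It passed without OGT_TG replicate 3 (adjusted p = 0.020) or 6 (adjusted p = 0.039), which are in neither group and enter only through the shared spread.

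Where the OGA transgene was present, adding OGT gave 9 members higher and 1 lower, 22.5% and 2.5% beside 8.33% and 9.77% of all rows. In DTG against OGA_TG, Sod3 rose by 1.00 log2 (SE 0.15, adjusted p = 7.9e-05), Hmox1 by 0.80 (SE 0.23, adjusted p = 0.017), Gpx1 by 0.66 (SE 0.20, adjusted p = 0.023) and Gclm by 0.61 (SE 0.09, adjusted p = 7.6e-05). Srxn1 rose by 0.48, Gstm2 by 0.46, Txnrd1 by 0.45, Prdx6 by 0.41 and Gsr by 0.17, and Gstp1 fell by 0.22. For 8 of these 9 genes, all but Gpx1, the 6 DTG hearts lay above the 6 OGA_TG hearts, beside 5.63% of all rows. Only Prdx3 had all DTG hearts below all OGA_TG hearts (-0.13 log2, not called), 1 member beside 5.73% of rows. Txnrd1, for one, held 18.1 to 20.4 FPKM in OGA_TG and 24.6 to 29.2 in DTG. The Gsr call was lost without OGA_TG replicate 1, 2, 3, 4 or 5 or DTG replicate 2, 3, 4, 5 or 6 (0.15 to 0.18). The Gpx1 call was lost without OGA_TG replicate 4 or 5 or DTG replicate 2 or 3 (0.56 to 0.64).

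The interaction asks whether the OGA difference depends on the OGT transgene; it subtracts the OGA_TG to WT difference from the difference between DTG and OGT_TG. It was called for 2 members, 5.00% beside 7.30% of all rows (1.81% positive and 5.49% negative). Gstm2 had an interaction of 0.47 log2 (SE 0.10, adjusted p = 0.0073): its median was 137 FPKM in WT, 110 in OGA_TG, 136 in OGT_TG and 149 in DTG. Gpx8 had an interaction of -0.54 (SE 0.14, adjusted p = 0.025), with medians of 24.1, 22.95, 37.5 and 21.99 FPKM in that order. Gpx8 was high in OGT_TG, and the ranges of the other 3 genotypes overlapped. Without OGT_TG replicates 3 and 6 the Gstm2 interaction was 0.38 (adjusted p = 0.011), that of Gpx8 was -0.44 and no longer called (adjusted p = 0.076), and Gsta4 (-0.38, adjusted p = 0.031) and Gstk1 (0.29, adjusted p = 0.035) became calls. Gpx3 (-0.64, adjusted p = 0.080) was called without OGT_TG replicate 2 (-0.72) or 4 (-0.73), and Gstk1 and Sod2 without replicate 2 (0.89 and 0.42).

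Between the sexes, no member passed either. In WT, OGT_TG and OGA_TG no number that opens a sample title covers both sexes, so sex and number cannot be told apart there. No member was called by limma between the sexes over the 4 genotypes (0 of 40, beside 0.266% of all rows), and 2 members, Gsta3 and Gstm2, were lower in males at an unadjusted p under 0.05. Gsta3 differed by -0.28 log2 (SE 0.10, adjusted p = 0.47), and the DTG females held 4.05 to 7.47 FPKM against 2.88 to 3.76 in the DTG males. Gstm2 differed by -0.17 log2 (SE 0.05, adjusted p = 0.20) and passed without OGT_TG replicate 3 (-0.20, adjusted p = 0.040). The genotype differences of OGT_TG and of DTG from WT passed no test of a difference between the sexes (0 members called by limma, beside 0.00% of all rows; 1 member each at an unadjusted p under 0.05).

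Other genes of the same pathways gave a wider view. Of 95 further genes listed, 89 had a row and 77 were tested, in 7 lists. In OGT_TG against WT, 29 rose and 14 fell, in DTG against WT 8 rose and 11 fell, and in DTG against OGT_TG 4 rose and 23 fell. In OGT_TG these were 37.7% and 18.2%, beside 25.2% and 12.2% of all rows, and in DTG 10.4% and 14.3%, beside 4.21% and 11.4%. In DTG against OGT_TG they were 5.19% and 29.9%, near the 5.02% and 27.2% of all rows. Without OGT_TG replicates 3 and 6, 20 rose and 8 fell in OGT_TG. The shares of all rows that rose and fell in OGT_TG, 25.2% and 12.2%, or 17.4% and 7.78% without those hearts, also stand beside each list that follows. In OGA_TG 1 gene of the 77 passed, Mgst1, a membrane-bound glutathione transferase, which fell by 0.41 log2 (adjusted p = 0.030). That call was lost without OGA_TG replicate 4, 5 or 6 or WT replicate 1, 3, 4, 5 or 6 (-0.47 to -0.35).

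Among partners and relatives of NRF2, 4 of 8 tested rose in OGT_TG and none fell (50% and 0%), and 3 rose without replicates 3 and 6. Maff and Mafk, small MAF proteins that pair with NRF2 or with its rival BACH1, were both higher. Maff rose by 1.38 log2 (SE 0.23, adjusted p = 9.6e-05), Mafk by 1.12 (SE 0.25, adjusted p = 0.0012). Maff ran from 2.10 to 3.31 FPKM in WT and from 4.16 to 20.3 in OGT_TG, where replicates 3 and 6 held 16.8 and 20.3; without them the differences were 0.86 and 0.61. Sqstm1, the autophagy adaptor p62 that sequesters KEAP1, rose by 0.58 (SE 0.09, adjusted p = 2.0e-05) from 148 to 206 FPKM in WT to 245 to 301, and by 0.38 (SE 0.09, adjusted p = 0.0043) in DTG.

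Of 14 other NRF2 target and quinone genes, 7 rose and 1 fell in OGT_TG (50% and 7.14%), and 5 and 1 without replicates 3 and 6. Ephx1, microsomal epoxide hydrolase, held 28.2 to 33.4 FPKM in WT, 49.6 to 63.2 in OGT_TG and 35.9 to 50.4 in DTG. It rose by 0.87 log2 in OGT_TG (SE 0.07, adjusted p = 5.4e-09) and by 0.52 in DTG (SE 0.07, adjusted p = 1.8e-05), with no overlap with WT in either. Cbr3, a carbonyl reductase, and Ftl1, the ferritin light chain, rose by 0.46 and 0.54 log2 in OGT_TG. Neither was called without replicates 3 and 6 (0.34 and 0.25), and Ftl1 was also lost without OGT_TG replicate 3 or 6 or WT replicate 1, 4, 5 or 6 (at least 0.41).

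Of 13 other glutathione transferases, 2 rose and 3 fell in OGT_TG (15.4% and 23.1%), and 3 and 2 without replicates 3 and 6. Mgst1 rose by 0.51 log2 (SE 0.09, adjusted p = 8.2e-05) from 33.0 to 54.5 FPKM in WT to 58.3 to 67.4 in OGT_TG. Gstm7 fell by 0.73 (SE 0.13, adjusted p = 0.00013), or by 0.46 without those hearts, and Mgst3 by 0.57 (SE 0.11, adjusted p = 0.00030). Of 11 other glutathione genes, 2 rose and 5 fell (18.2% and 45.5%), but without replicates 3 and 6 only 1 rose and 1 fell. Chac2, which degrades glutathione, fell by 0.47 log2 (SE 0.10, adjusted p = 0.00096), and Oplah and Ggct, of the cycle that salvages its amino acids, fell by 0.38 and 0.36. The calls of Oplah and Ggct were lost without replicates 3 and 6 (-0.36 and -0.23). Oplah was also lost without OGT_TG replicate 4, 5 or 6 or WT replicate 2, 3, 5 or 6, and Ggct without OGT_TG replicate 2, 3 or 6 or WT replicate 1, 4 or 6 (-0.45 to -0.29 for both). Of 15 other thioredoxin, methionine sulfoxide and peroxidase genes, 7 rose and none fell (46.7% and 0%), and 5 rose without replicates 3 and 6. They were led by the membrane paraoxonase Pon2 (0.61, SE 0.08, adjusted p = 7.4e-06), the protein disulfide isomerase Txndc5 (0.60, SE 0.12, adjusted p = 0.00038, or 0.34 without those hearts) and the sestrin Sesn3 (0.36, SE 0.11, adjusted p = 0.0099).

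Among genes of NADPH supply, Nnt and Idh2 fell in both OGT_TG and DTG. Nnt, the transhydrogenase of the inner mitochondrial membrane, held 195 to 234 FPKM in WT, 101 to 156 in OGT_TG and 139 to 153 in DTG. Idh2, mitochondrial isocitrate dehydrogenase, held 1104 to 1361 FPKM in WT, 788 to 1064 in OGT_TG and 791 to 1022 in DTG. Neither gene's OGT_TG or DTG hearts overlapped with WT. Nnt fell by 0.67 log2 in OGT_TG (SE 0.08, adjusted p = 3.4e-06) and by 0.56 in DTG (SE 0.08, adjusted p = 8.8e-05), and Idh2 by 0.47 and 0.44. Me3, mitochondrial malic enzyme, fell by 0.42 in OGT_TG (SE 0.08, adjusted p = 0.00049). Me3 differed by -0.19 in DTG (adjusted p = 0.14). Of the 6 tested genes of this list, 4 fell and 2 rose in OGT_TG (66.7% and 33.3%), and 3 fell in DTG. The 2 that rose, named after their values were seen, were mitochondrial malic enzyme Me2 (0.31, adjusted p = 0.017) and the NAD kinase Nadk (0.17, adjusted p = 0.044); without replicates 3 and 6, 3 fell and none rose in OGT_TG. The C57BL/6J strain is known for a deletion in Nnt, and FPKM does not show whether the message is intact.

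Of 10 tested sources of superoxide and peroxide, 5 rose and 1 fell in OGT_TG (50% and 10.0%), and 3 and 1 without replicates 3 and 6. Nox4, an NADPH oxidase that produces hydrogen peroxide, held 0.55 to 1.13 FPKM in WT, 3.54 to 10.1 in OGT_TG and 1.204 to 2.24 in DTG. Most of its WT and OGA_TG hearts lay under 1 FPKM, so Nox4 passed the filter only through its OGT_TG and DTG hearts. It rose by 1.92 log2 in OGT_TG (SE 0.16, adjusted p = 1.4e-08) and by 0.52 in DTG (SE 0.16, adjusted p = 0.032), and the interaction was -1.38 (SE 0.23, adjusted p = 0.0015). The DTG call was lost without DTG replicate 4, 5 or 6 or WT replicate 2, 3, 5 or 6 (0.45 to 0.56), while the OGT_TG difference was 1.65 without replicates 3 and 6. Maob, a monoamine oxidase of the outer mitochondrial membrane, fell by 0.83 log2 in OGT_TG (SE 0.16, adjusted p = 0.00034) and by 0.55 in DTG (SE 0.16, adjusted p = 0.022), where the call was lost without WT replicate 1 or 6 (-0.60 to -0.50). In OGT_TG replicates 3 and 6 Maob stood at 13.7 and 11.3 FPKM, against 25.3 to 27.0 in the other 4, and the difference was -0.49 without both. Ncf4, a subunit of the phagocyte oxidase, rose by 0.57 log2 (adjusted p = 0.023) in OGT_TG and was not called without OGT_TG replicate 3 or 6 or WT replicate 5 or 6 (0.40 to 0.73); without both OGT_TG hearts its difference was 0.21.

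**Figure D4:**
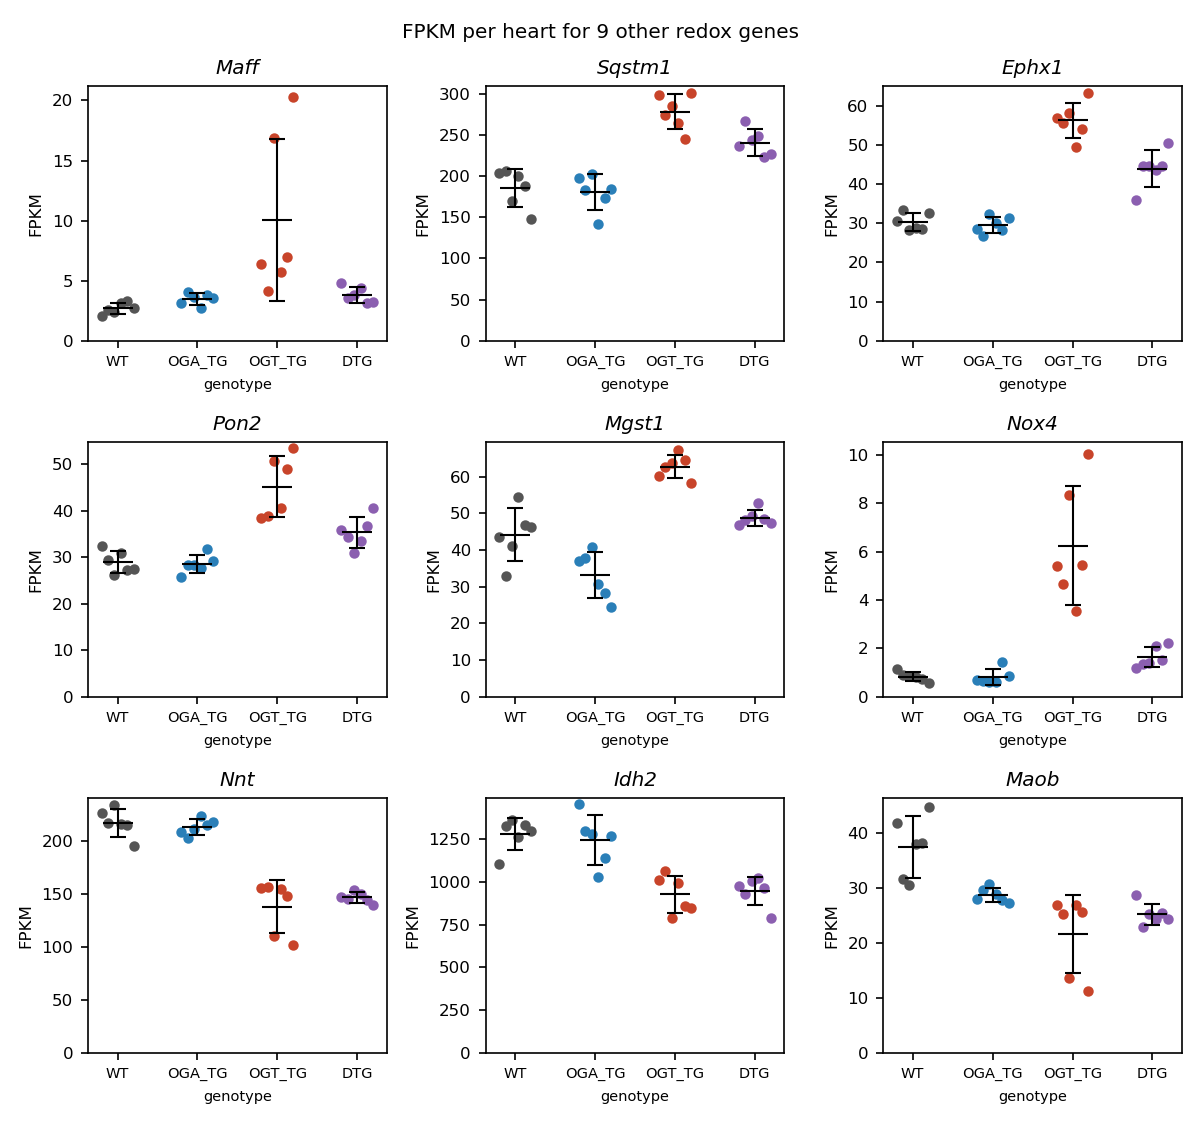
FPKM of 9 further redox genes in each heart by genotype, with the mean and SD of 6 hearts as bars. Ephx1, Sqstm1 and Nox4 are higher in all OGT_TG and all DTG hearts than in all WT hearts, and Nnt, Idh2 and Maob are lower in all of them.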

How the data were processed

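Polyadenylated RNA of 24 whole hearts was sequenced as stranded 100 bp paired-end libraries, per the labels. The levels are FPKM, which the authors deposited as 1 table and which correct fragment counts for transcript length and library size; FastQC, TopHat, SAMtools, StringTie and Cuffdiff 2.2.1 and the build mm10 come from the submitters' processing notes. The depth of a library is unknown from FPKM. Rows with missing values (4) were left out.

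From the table, log2(FPKM + 1) was fitted with limma 3.58.1 in R 4.3.3 (two-sided, variance trend on, genotype and sex as terms, 24 hearts in 1 model). The 12020 of 19660 rows that reached 1 FPKM in 6 or more libraries entered, with Benjamini-Hochberg adjustment over all of them. The test was checked on simulated data. Genotype and sex came from the labels, and replicate numbers are names only. The members and lists were chosen with earlier results of these data known. All members may be named. Fuller values go to at most 3 called members of each role group, those with the largest differences of OGT_TG or DTG from WT, and to the 5 largest calls of OGA_TG against WT, DTG against OGT_TG, the interaction and sex. Of each other list, at most the 3 called genes with the largest difference are named.

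WT and OGT_TG hearts share the number that opens their sample titles. Deviations from the group means correlated at 0.11 to 0.41 over 10 pairs with the same number and at -0.19 to 0.03 over 8 pairs of the same sex with different numbers, so the number was used as a block in an alternative fit. OGA_TG and DTG share no number with other genotypes, so for them number and genotype cannot be told apart. Alternatives were a pseudocount of 0.1, no filter, a filter of 5 FPKM, 3 other scalings, no sex term, only the groups compared, the block, and each heart or OGT_TG replicates 3 and 6 left out. Gene positions came from GENCODE M21 by symbol, on the same build, and promoter windows from RefSeq (GRCm38.p6). Figures were drawn with matplotlib 3.10.9 in Python 3.11.15.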

Additional observations from a re-analysis of the deposited data

Results flagged for a closer look

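In each genotype, the highest and the lowest heart of each of the 40 genes were compared with the other 5 hearts by Dixon's criterion. Of 160 groups, 11 had a heart that stood apart, and chance gives about 1 in 20. Of the 11 hearts, 7 were WT replicate 1. Its Me1 was 76.8542 FPKM where the other WT hearts held 58.7 to 63.8, its Gsta3 was 8.4844 (others 4.52 to 5.68), its Gpx7 was 7.24149 (4.38 to 5.00) and its Prdx1 was 281.382 (213 to 230). Its Gpx4, at 365.089 FPKM, lay below the others (422 to 453), and so did its Prdx2 at 291.914 (348 to 385) and its Mt2 at 5.97595 (9.05 to 11.1).

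The 4 others were spread over the transgenic genotypes. Gclm was 10.5532 FPKM in OGA_TG replicate 3 (others 8.44 to 8.73). Gss was 11.6021 in OGT_TG replicate 6 (7.79 to 8.97). Prdx1 was 297.793 in DTG replicate 6 (250 to 261), and Prdx3 was 179.7 in DTG replicate 2 (192 to 198).

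The interaction of the OGA and OGT transgenes was called by limma for 2 of the 40 genes, beside 7.30% of all tested rows. Gstm2 had an interaction of 0.466468 log2 (adjusted p = 0.0073), and Gpx8 one of -0.544742 (adjusted p = 0.025).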

How the results depend on the processing

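No call changed sign under any alternative run. Of the values of single members under alternatives, 11217 stayed on the same side of the threshold, 150 calls were lost and 73 gained. In OGT_TG against WT, 18 members were higher (15 to 19 with 1 heart left out) and 5 lower (5 with any 1 heart left out), and 8 were lower under median-of-ratios scaling and 2 with only the groups compared. In DTG against WT, 5 were higher (4 to 7 with 1 heart left out), and 8 under median-of-ratios scaling or an equal sum of FPKM; 2 were lower (1 to 2 with 1 heart left out), and 1 with no filter or under median-of-ratios scaling, an equal sum or quantile normalization. In DTG against OGT_TG, 3 were higher (0 to 5 with 1 heart left out), and 10 by median-of-ratios, 6 with quantile normalization, 0 with only the groups compared and 0 without OGT_TG replicates 3 and 6; 12 were lower (8 to 13), against 5 by median-of-ratios and 7 with quantile normalization. In DTG against OGA_TG, 9 were higher (7 to 10) and 1 lower, or 2 with only the groups compared. The interaction was positive and called for 1 member (1 to 3 with 1 heart left out; 2 without OGT_TG replicates 3 and 6) and negative for 1 (1 to 2). In OGA_TG against WT and between the sexes, 0 members were lower with all hearts and 0 to 1 with 1 heart left out.

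With the title number as a replicate block for WT and OGT_TG, 18 members were higher and 4 lower; Txnrd2 (-0.24, adjusted p = 0.053) and Gpx7 (0.37, 0.12) were lost and Mt1 (0.31, 0.038) gained, and no other call changed. The cause of the changes with scaling and with only the groups compared was not tested. Calls of Gpx4, Gpx7, Gsta4, Me1 and Prdx6 were lost when any of several single hearts was left out. Depth is unknown from FPKM, and genes with close copies may share reads.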
